A study of Mus musculus with 20 samples.

Results

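The G2 and mitosis genes described here are 42 named genes whose products bring a cell from the end of DNA replication to its division. They were chosen as a list of gene names, and all 42 had a row in the deposited table of 23260 genes. Their transcripts were counted in 79009 single cells as unique molecular identifiers (UMIs, which mark each captured transcript once), and summed for each library and each cell type that the authors assigned. By role, 6 are cyclins or direct controls of CDK1, 6 act on chromosome structure, 10 on the kinetochore and its checkpoint, 5 belong to or partner with the chromosomal passenger complex, 12 act on the spindle, and 3 on cytokinesis.

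The study placed genes for the homeodomain transcription factors MEIS1 and MEIS2 into retinal explants of wildtype CD1 mice by electroporation, and asked how late retinal progenitors respond. Each age, postnatal day 2 (P2) and postnatal day 5 (P5), had 4 control libraries that received the GFP plasmid with no added gene, 2 libraries with MEIS1, 2 with MEIS2 and 2 with an equal mix of both, here called the combination, which makes 20 libraries in 8 groups. All cells had been isolated as GFP-positive after papain dissociation, so each library samples only cells that took up a plasmid, and the pCAGIG plasmid is known to drive its insert from a promoter active in most cell types. The labels do not say which libraries came from separate animals, so the p-values measure the spread between these libraries.

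The sources disagree on some groups. In the design text of the series the delivered genes are NR2F1 and NR2F2 and the times are days of treatment, single-gene libraries all carry MEIS1 in their treatment tag at P2 and MEIS2 at P5, and barcode prefixes put P2 control 1 among the combinations and P2 combination 2 among the controls. Barcode prefixes of controls also carry other numbers than the titles do, so the sources disagree on library numbers too. The titles were followed here for groups and numbers. In progenitors, Meis1 was measured at 2099 to 3750 CPM (UMIs of a gene per 1000000 UMIs of that library and cell type) in the 4 libraries titled MEIS1 and at 164 to 354 CPM in the 8 controls, and Meis2 at 848 to 1830 CPM in the 4 titled MEIS2 and at 34.6 to 197 CPM in the controls. P2 control 1 had the highest control values of both genes, 354 and 197 CPM, and P2 combination 2 had 887 and 913 CPM, beside 1001 and 671 CPM in P2 combination 1, so the order of these libraries is that of their titles. Libraries held 1625 to 17739 cells with medians of 992 to 14199 UMIs per cell. The shallowest was P2 MEIS2 library 2. Of 78261 distinct cell barcodes, 744 occurred in more than 1 library.

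Division genes are switched on late in the cell cycle. CDK1 with cyclin A and cyclin B drives entry into mitosis, condensins and topoisomerase II shape the chromosomes, Aurora kinases and motor proteins build the spindle, and the anaphase-promoting complex with CDC20 and UBE2C then destroys the cyclins so that the cell can exit. In the newborn mouse retina dividing cells are nearly all progenitors, and they dwindle over the days after birth as the last of them become rods, bipolar cells and Müller glia. Many promoters of such genes carry CCAAT boxes, bound by NF-Y, and a CHR element (cell cycle genes homology region), through which the DREAM and MuvB complexes hold the genes off in resting cells and on in G2.

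All 42 genes are protein-coding and lie on 17 chromosomes of the mm10 mouse genome, 6 of them on chromosome 2. Of the 42, 35 matched a RefSeq promoter window in the table for GRCm38.p6, running from 250 bases before to 50 bases after the start of transcription. The stretch of 150 bases just upstream of the start is shown for 5 of 8 members that recur in the results, those that hold both kinds of element there, 5′ to 3′ on the strand of the gene. The other 3, Ccnb1, Cenpf and Aurka, each had 2 CCAAT matches and 0 CHR matches in this stretch. Capitals mark CHR letters (TTTGAA, its reverse complement TTCAAA, or TTCGAA) and CCAAT or its reverse complement ATTGG. The windows are chr7:135716380-135716529 on the minus strand for Mki67, chr11:99024190-99024339 on the minus strand for Top2a, chr10:69352913-69353062 on the minus strand for Cdk1, chr8:57511693-57511842 on the plus strand for Hmgb2, and chr2:164769779-164769928 on the plus strand for Ube2c.
Mki67: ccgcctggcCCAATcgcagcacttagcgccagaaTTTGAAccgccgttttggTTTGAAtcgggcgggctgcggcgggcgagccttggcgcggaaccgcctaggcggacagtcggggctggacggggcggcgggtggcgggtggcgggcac
Top2a: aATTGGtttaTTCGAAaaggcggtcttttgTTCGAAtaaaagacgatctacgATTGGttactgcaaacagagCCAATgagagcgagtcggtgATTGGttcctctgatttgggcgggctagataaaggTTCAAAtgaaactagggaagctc
Cdk1: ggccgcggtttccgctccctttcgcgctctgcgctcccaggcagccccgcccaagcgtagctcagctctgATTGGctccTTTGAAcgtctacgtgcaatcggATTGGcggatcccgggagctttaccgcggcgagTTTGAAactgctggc
Hmgb2: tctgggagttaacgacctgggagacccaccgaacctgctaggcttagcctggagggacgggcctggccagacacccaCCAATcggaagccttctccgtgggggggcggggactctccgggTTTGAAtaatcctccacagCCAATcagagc
Ube2c: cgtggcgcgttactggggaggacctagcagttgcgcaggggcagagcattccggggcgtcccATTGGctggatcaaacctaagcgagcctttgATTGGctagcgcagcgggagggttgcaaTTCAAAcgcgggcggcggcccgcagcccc
Top2a carried 3 CHR matches and 4 CCAAT matches in this stretch, the most of the 5, and Cdk1 carried 2 of each. Hmgb2 and Ube2c held 1 CHR match, at 30 and 29 bases before the start.

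Over the whole 300-base windows on both strands, 26 of the 35 matched members (74.3%) held a CHR match, against 21.7% of the 27025 genes in the table, where a gene counts if any of its windows has the letters. A CCAAT match was found in 27 of 35 (77.1%, against 41.1%), at least 2 of them in 23 (65.7%, against 13.3%), and both elements in 22 (62.9%, against 9.65%). The letters of an E2F site (TTTCCCGC or TTTGGCGC), typical of genes switched on before DNA replication, were in 2 members, Ncapd2 and Tmpo (5.71%, against 1.80%), and matches of different motifs overlapped at 1 place in all members' windows. The 4 with none of these letters were Nusap1, Birc5, Nuf2 and Tacc3. All 5 windowed chromosome structure genes had both elements, and the kinetochore genes had CHR in 7 and CCAAT in 8 of 10. A match is a string of letters and was not tested as a binding site.

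At P2 these genes were measured mainly in progenitors, but at P5 this held in only some libraries. Summed over the 42 genes, they took 0.550%, 0.564%, 0.947% and 0.188% of all progenitor UMIs in the 4 P2 controls, in order of their numbers, a mean of 0.562% ± 0.310 (SD, n = 4). In the P5 controls the shares were 0.0442%, 0.0488%, 0.430% and 0.0410%, a mean of 0.141% ± 0.193 (SD, n = 4). Every P2 control was thus above P5 controls 1, 2 and 4, while P5 control 3 lay inside the P2 range. A sum over cells cannot by itself tell fewer dividing cells from less RNA in each.

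In rods, amacrine cells and neurogenic cells of the controls the share was lower than in the P2 progenitors. Rods, the main photoreceptors, had 0.0498% ± 0.00351 in P2 controls and 0.0340% ± 0.00735 in P5 controls, and amacrine cells, inhibitory interneurons, had 0.0345% ± 0.00377 and 0.0240% ± 0.00638 (SD, n = 4 each). Neurogenic cells, the progenitors' daughters on their way to neurons, had 0.0489% ± 0.00360 and 0.0328% ± 0.00698 (SD, n = 4 each), which is the level of rods. The ratio of the progenitor to the rod share within a library ran from 1.00 in P5 control 4 to 19.7 in P2 control 3. It was 1.69 and 1.67 in P5 controls 1 and 2 and 10.9 in P5 control 3. Progenitors held 65.5% to 93.1% of a P2 control's member UMIs, 15.8% to 36.4% in P5 controls 1, 2 and 4, and 82.4% in P5 control 3.

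**Figure D1:**
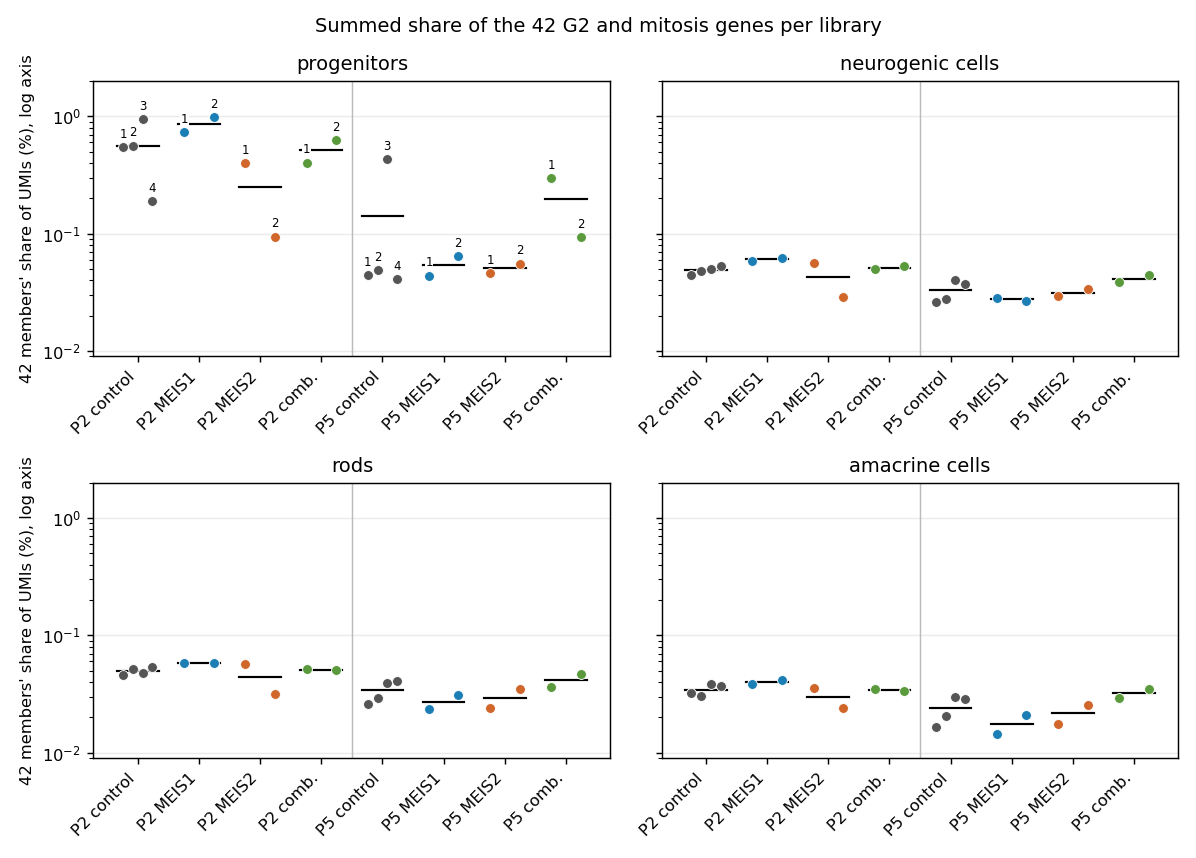
Summed share of UMIs taken by the 42 genes, in percent on a log axis, for each library (points) in progenitors, neurogenic cells, rods and amacrine cells, by group. The other types stay between 0.0145% and 0.0622%, and progenitors lie above that range in every P2 library and in P5 control 3, P5 combination 1, P5 combination 2 and, just, P5 MEIS1 2.

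The low share outside progenitors came from few genes. In rods 38 of the 42 had a mean below 10 CPM, and the exceptions were Hmgb2 (161 CPM), a chromatin protein also present outside division, the nuclear lamina protein Tmpo (84.0 CPM), the condensin subunit Smc4 (51.4 CPM) and the CDK1 cofactor Cks2 (25.2 CPM). The ratio of the progenitor mean to the rod mean was smallest for Tmpo, at 1.74, and largest for Top2a, at 92.3, with a median of 24.8 over the members. These 4 genes supplied 77.8% of the members' UMIs in rods.

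By role, the chromosome structure genes supplied 51.8% of all member UMIs, the kinetochore genes 14.98%, the spindle genes 12.1%, the cyclin and CDK1 genes 11.9%, the passenger genes 6.75% and the cytokinesis genes 2.54%. These are UMI levels from the 3′ ends of transcripts and are not scaled by length. In control progenitors Hmgb2 stood at 1301, 1776, 2188 and 686 CPM in P2 controls 1 to 4, and at 168, 201, 1017 and 184 CPM in P5 controls 1 to 4. P2 control 3 was the highest P2 control for 40 of 42 members, and P2 control 4 was the lowest for all 42. The share of all genes with such ranks was not computed, here or for the ranks below.

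**Figure D2:**
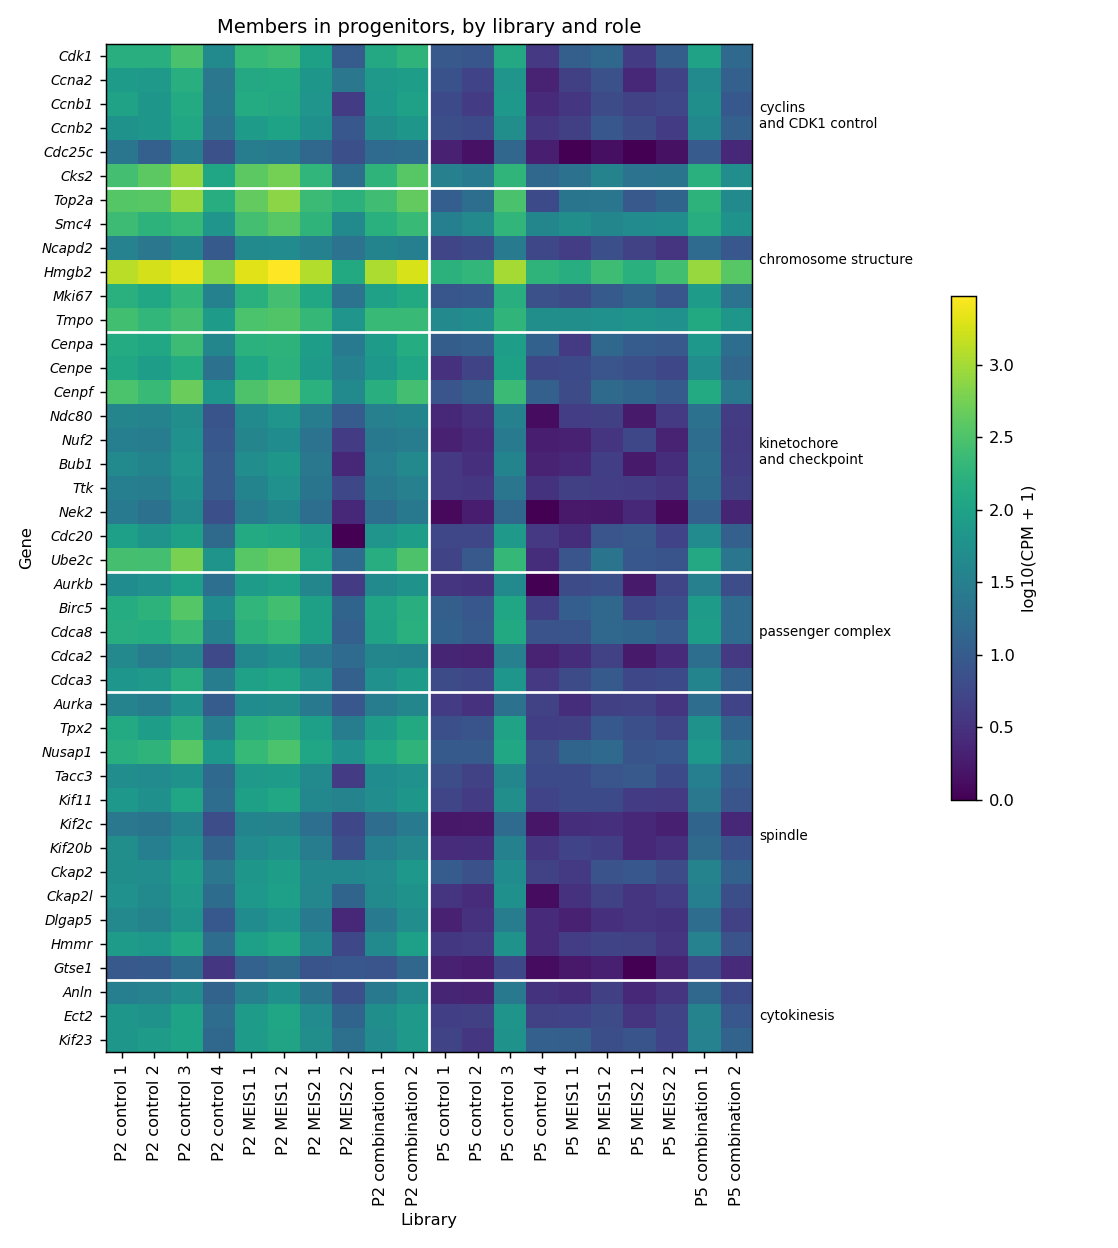
Level of each of the 42 genes (rows, by role) in the progenitors of each library (columns), as log10 of CPM plus a pseudocount of 1, from dark blue (low) to yellow (high). Every P2 control is brighter than P5 controls 1, 2 and 4 in every row, and the columns of P5 control 3 and P5 combination 1 stand out among the P5 libraries.

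Counted cell by cell, the members separated progenitors into a large set with almost none and a smaller set with many. Each progenitor was thinned to 1000 UMIs, which left 11567 cells, and 69.8% of them held 0 or 1 member UMI. A high range of at least 5 member UMIs per 1000, a threshold set after seeing the data, held 2616 cells, and 2.20% of cells lay next to the threshold. In the P2 controls 26.7%, 23.2%, 45.4% and 6.17% of progenitors were in the high range. The P5 controls had 3.61%, 2.42%, 20.5% and 1.43%, so again only the third overlapped with P2. Rods had 0 to 0.323% in every library.

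In the 11 libraries with at least 20 high cells, the mean of those cells was 14.7 to 21.5 member UMIs per 1000. P5 controls 1, 2 and 4 had only 7, 9 and 2 such cells, with means of 9.57, 14 and 13.5, against 16.9 to 21.5 in the P2 controls and 17.3 in P5 control 3. The cells were picked by the same counts, so these means do not tell fewer dividing cells from less RNA in each. In P2 controls together 46.5% of 5578 progenitors had no member UMI, against 76.6% of 706 in P5 controls 1, 2 and 4 and 57.0% of 982 in P5 control 3. Cells with 20 to 29 member UMIs made up 7.46%, 0.283% and 5.80% of the same sets. The members also occurred in the same cells. Among 1038 thinned P2 control progenitors with a Top2a UMI, 52.7% had a Cenpf UMI, 50.7% Ube2c, 40.2% Cdk1 and 33.7% Mki67, against 5.33%, 4.25%, 3.46% and 4.10% of the 4540 without Top2a. In P5 control 3, of the 126 cells with Top2a, 50.0% had Cenpf, 54.0% Ube2c, 42.9% Cdk1 and 46.8% Mki67, against 5.02%, 2.69%, 1.99% and 3.86% of the 856 without it. At this depth 0 to 0.984% of rods had a Top2a UMI, which is the background to these shares.

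**Figure D3:**
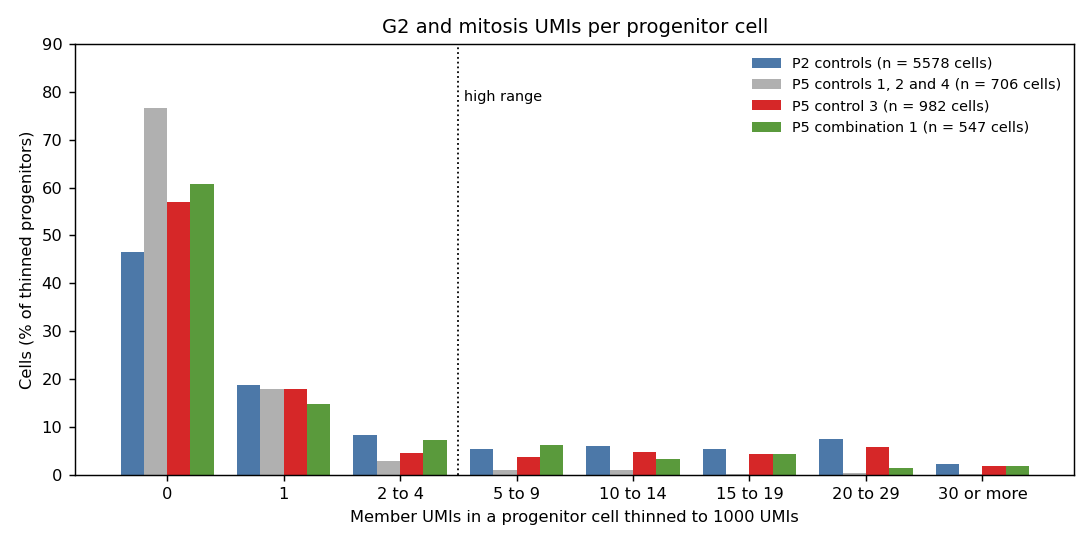
Distribution of member UMIs per progenitor after thinning to 1000 UMIs, as percent of cells in each bin, for the P2 controls together, P5 controls 1, 2 and 4 together, P5 control 3 and P5 combination 1. P5 control 3 has a larger percent of cells than the other P5 controls together at 5 to 9 member UMIs (3.77% against 0.99%), at 10 to 14 (4.68% against 0.99%) and at 15 to 19 (4.38% against 0.14%).

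The authors' progenitors consist of 3 of their clusters, and the members were spread unevenly among them. Clusters 12 and 16, with 2325 and 1117 cells, had shares of 1.23% and 1.86% and held 59.8% and 34.3% of progenitor member UMIs. Cluster 3, with 8376 cells, had 0.0338%. Its share by library was 0.0194% to 0.0478%, with a median of 0.0304% against 0.0433% in rods, and was below that of rods in 19 of 20 libraries. The clusters were made from the same cells and genes, so these values describe the partition and test nothing. Clusters 12 and 16 together held 35.4%, 30.2%, 53.2% and 7.71% of progenitors in P2 controls 1 to 4, and 6.15%, 4.52%, 25.9% and 2.86% in P5 controls 1 to 4, which is 12, 17, 254 and 4 cells. With MEIS they held 7.64% to 52.0% at P2, and at P5 24.95% in combination library 1 and 4.19% to 9.52% in the other 5 libraries. A difference between groups over all progenitors therefore compares different mixes of these clusters. Within cluster 3 the share was 0.0387% to 0.0445% in P2 controls and 0.0194% to 0.0288% in P5 controls.

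The first comparison asked how division genes differ between P2 and P5 control progenitors, where no MEIS gene was added. All 42 members had a log2 fold change (P5 minus P2) below 0, with a median of -2.05, and 6 passed edgeR's quasi-likelihood test with Benjamini-Hochberg adjustment over all 14849 genes tested. Of all genes, 6.96% were called lower at P5 and 10.6% higher, with a median log2 fold change of -0.04, and 6 of 42 is 14.3% of the members. At an unadjusted p under 0.05 there were 38 members, with 33.5% of all genes. The test is limited by P5 control 3: no member had all P2 controls above all 4 P5 controls (6.99% of all genes did), and all 42 had them above P5 controls 1, 2 and 4 (16.0% of all genes did). Clusters 12 and 16, where most member UMIs lie, held no more than 17 progenitors in each of those 3 libraries and 85 to 879 in each P2 control, so the fit over all progenitors does not separate a difference within a cluster from one in the mix.

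Among the cyclin and CDK1 genes, Cks2, which docks CDK1 to its substrates, fell. It was at 275, 398, 861 and 110 CPM in the P2 controls and at 31.9, 25.3, 187 and 13.4 CPM in the P5 controls. Its log2 fold change was the lowest of all members, -2.78 ± 0.82 (SE), with an edgeR Benjamini-Hochberg adjusted p of 0.0281. Cdk1 itself was at 149, 154, 298 and 43.4 CPM against 8.46, 7.40, 124 and 2.81 CPM, a log2 fold change of -2.25 ± 0.93 that was not called (edgeR adjusted p = 0.100). Ccnb1, cyclin B1, was at 98.4, 68.4, 134 and 24.2 CPM against 4.99, 3.21, 69.8 and 1.56 CPM and was not called either (-2.05 ± 0.90, edgeR adjusted p = 0.119). For both genes P5 control 3 overlapped with the P2 controls and the other P5 controls did not.

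Among the chromosome structure genes, Hmgb2 fell by 2.00 ± 0.67 on the log2 scale (edgeR adjusted p = 0.0479). Top2a, topoisomerase II alpha, which untangles sister chromosomes, was at 362, 374, 855 and 145 CPM in P2 controls and at 9.98, 16.8, 302 and 4.99 CPM in P5 controls (-2.50 ± 0.93, edgeR adjusted p = 0.0726, not called). Mki67, which coats mitotic chromosomes and is the usual stain for dividing cells, was at 157, 120, 197 and 33.0 CPM against 7.60, 8.14, 155 and 6.24 CPM (-1.58 ± 0.86, edgeR adjusted p = 0.207, not called). The condensin gene Smc4 had the smallest difference of all members, -1.22 ± 0.55 (not called). For Mki67 the value of P5 control 3 exceeded 2 of the 4 P2 controls.

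Of the 10 kinetochore and checkpoint genes only Cenpa passed. Cenpa, the histone variant that marks centromeres, fell from 135, 120, 238 and 38.5 CPM to 9.55, 10.6, 85.4 and 10.9 CPM (-2.25 ± 0.72, edgeR adjusted p = 0.0399). Cenpf, a kinetochore protein, was at 309, 220, 472 and 65.8 CPM against 7.16, 10.2, 233 and 10.6 CPM (-2.13 ± 0.93, not called). Ube2c, the ubiquitin-conjugating enzyme of mitotic exit, was at 278, 272, 604 and 62.2 CPM against 4.12, 8.39, 202 and 1.87 CPM (-2.60 ± 1.08, not called). Its error was the widest of the named members.

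The spindle genes had 3 calls of 12. Aurka, the kinase of the spindle poles, was at 35.3, 27.8, 55.7 and 9.32 CPM in P2 controls and at 3.04, 2.10, 19.3 and 3.74 CPM in P5 controls (-2.18 ± 0.64, edgeR adjusted p = 0.0261). Gtse1, which stabilises spindle microtubules, was at 8.38, 8.73, 16.0 and 2.52 CPM against 1.09, 0.864, 4.68 and 0.312 CPM (-2.23 ± 0.63, edgeR adjusted p = 0.0221). Its mean over 20 libraries, 5.65 CPM, was the lowest of the members, and P5 controls 1 to 4 held 5, 7, 54 and 1 of its UMIs. Nusap1, a microtubule-bundling protein, was at 149, 179, 367 and 70.4 CPM against 8.68, 8.76, 122 and 5.61 CPM (-2.49 ± 0.78, edgeR adjusted p = 0.0375). In the passenger complex (Aurkb, Birc5, Cdca8 and partners) 0 of 5 were called and in cytokinesis (Anln, Ect2, Kif23) 0 of 3. Before adjustment 4 and 3 of them had a p under 0.05, as did 33.5% of all genes. The edgeR log2 fold changes lay between -2.50 and -1.66 in the passenger complex and between -2.09 and -1.78 in cytokinesis.

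Without P5 control 3, all 42 members were called lower at P5, against 10.4% of all genes, with a median log2 fold change of -4.19. Ube2c was then at -5.87 ± 0.96, Top2a at -5.31 ± 0.71 (edgeR adjusted p = 0.000121), Nusap1 at -4.61, Mki67 at -4.07 and Hmgb2 at -3.01, and the smallest difference was that of Tmpo, -2.08. P5 control 3 was singled out with earlier results of these data known, and it was the highest P5 control for every member. The calls without it therefore describe how far the fit depends on this library and are no separate test. Leaving out P2 control 4 gave 22 members called lower (8.65% of all genes), leaving out P2 control 1 gave 5 (7.77%), and leaving out P2 control 2 gave 3 (4.53%). Leaving out P2 control 3 or P5 control 1, 2 or 4 gave 0 (3.83%, 3.67%, 3.46% and 3.65% of all genes). With all libraries DESeq2 called 15 members lower (6.24% of all genes), and an edgeR fit of the control groups alone called 2 (5.34%).

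Other genes of the cell cycle were read from the same fit. Of 52 further G2 and mitosis genes 11 were called lower and 0 higher, with a median log2 fold change of -1.68, among them the CDK1-activating phosphatase Cdc25b (-2.18) and the histone variant H2afz (-1.73). Of 46 S phase genes 5 were called lower and 0 higher, beside 6.96% of all genes called lower, with a median of -1.10, among them the replicative helicase subunit Mcm7 (-1.45) and Cdca7 (-1.93). Of 20 genes of G1 and of cell cycle braking, 4 were called higher and 4 lower, beside 10.6% and 6.96% of all genes. Cyclin D2, Ccnd2, rose by 3.49 ± 0.58 on the log2 scale (edgeR Benjamini-Hochberg adjusted p = 0.000722), and its partner kinase Cdk6 (1.10), cyclin D3, Ccnd3 (1.65), and the antiproliferative gene Btg2 (1.49) also rose, while Btg1 (-1.18), Cdkn2d (-1.47), E2f1 (-1.13) and Rbl2 (-0.57) fell. Without P5 control 3, left out with its levels known, the lower calls were 48 of 52 and 39 of 46, beside 10.4% of all genes. Of the 20 genes of G1 and braking 3 were then called higher and 8 lower, and of all 14537 genes tested 1702 were called higher. Glial and stress transcripts also differed between the ages in the same progenitors. All 6 Müller glia markers on the list were detected in every control, and together took 0.111% to 0.324% of UMIs in P2 controls and 0.891% to 1.64% in P5 controls. Stress genes of dissociation together took 0.0429% to 0.102% and 0.299% to 0.574%, although Hspa1a and Hspa1b overlapped between the ages. The part of either in the members' difference was not tested.

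P5 control 3 stood apart from the other P5 controls for every member. It also differed from them in its clusters: 191 and 63 of its 982 progenitors were in clusters 12 and 16, against 2 to 7 and 2 to 10 in the others, while within cluster 3 its summed share was 0.0288% against 0.0194%, 0.0230% and 0.0273%. Its age is known from its labels alone, and whether that label is right was not tested, although each age and P5 comparison depends on it. It was the highest of the 10 P5 libraries for 41 of 42, the exception being Gtse1, and within the range of the P2 controls for all 42. Its level over the median of the other 3 P5 controls was 16.1 at the median member, from 3.78 for Tmpo to 63.6 for Nek2, a kinase of centrosome separation. Top2a was 30.3 times and Ube2c 49.1 times that median, and Hmgb2 5.54 times. Nek2 had only 1, 7 and 0 UMIs in P5 controls 1, 2 and 4, so its ratio rests on very few counts. P5 control 3 and P5 combination 1 were the 2 highest P5 libraries for all 42 members. For these ranks the share of all genes was not computed, and the members occur in the same cells, so the counts are not separate signs.

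In P5 control 3 chromosome structure genes supplied 43.7% of progenitor member UMIs, and Hmgb2 alone 23.6%, inside the P2 control ranges of 39.7% to 54.1% and 23.1% to 36.5%. In the other P5 controls the same values were 59.2% to 70.4% and 37.9% to 44.8%. Its S phase genes took 0.183% of progenitor UMIs against 0.0537% to 0.0585% in the other P5 controls, and the further G2 and mitosis genes 0.533% against 0.163% to 0.180%.

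The summed glial and stress markers of this library lay above those of the P2 controls, and its depth, progenitor number and summed neurogenic markers lay within theirs. Its progenitors had 0.891% Müller glia markers, below the 1.03% to 1.64% of the other P5 controls and above all P2 controls, with the glial lipid carrier Apoe at 6091 CPM against 7084 to 13675 and the water channel Aqp4 at 4.86 against 4.32 to 9.98. Stress genes together took 0.354%, within the 0.299% to 0.574% of the other P5 controls and above the P2 controls. Fos, Jun and Egr1, at 1910, 856 and 775 CPM, were each above all P2 controls. Hspa1a was at 1.47 CPM, against 3.74 to 766 in the other P5 controls and 0.406 to 31.0 in the P2 controls. Hspa1b was at 0.781 CPM, against 0.624 to 534 and 0.406 to 21.3. The progenitor genes Sfrp2 and Fgf15 were at 13.9 and 5.64 CPM, against 2.71 to 5.86 and 0.864 to 3.04 in the other P5 controls and 16.9 to 25.8 and 15.6 to 20.9 in the P2 controls. It held 982 progenitors, against 140 to 376 in the other P5 controls and 696 to 2482 in the P2 controls. Their median depth was 10926 UMIs per cell, against 22033 to 24147 and 5503 to 12424.5. Neurogenic markers took 0.141% of its progenitor UMIs, with all 10 genes detected, against 0.0324% to 0.112% in the other P5 controls, where Atoh7 and Olig2 were at 0 in at least 1 library. The P2 controls had 0.128% to 0.164%, with all 10 detected. The part of depth, cell number or these other transcripts in its division genes was not tested.

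The next comparisons asked whether added MEIS1, MEIS2 or both changed division genes in progenitors at the same age. At P2 none of the 42 members was called for any MEIS against control by edgeR (0.0135% of all genes were), by DESeq2 (0.0316%), or at an unadjusted p under 0.05 (9.14%), and their median log2 fold change was -0.31, from -0.97 for Cks2 to 0.25 for Ncapd2. The 6 construct libraries had summed shares of 0.0944% to 0.978%, a mean of 0.539% ± 0.308 (SD), against 0.562% ± 0.310 in the 4 controls. The groups overlapped fully. Without P2 control 3 the differences of Mki67, Top2a and Aurka turned from -0.24, -0.56 and -0.25 to 0.17, 0.13 and 0.28.

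For single constructs at P2 the members' medians were 0.47 for MEIS1, -1.16 for MEIS2 and -0.24 for the combination, no member was called in any by edgeR or DESeq2, and none had an unadjusted edgeR p under 0.05 (0.00673%, 0.0404% and 0.0135% of all genes were called by edgeR, 0.00451%, 2.45% and 0.0135% by DESeq2, and 1.03%, 15.9% and 2.65% had such a p). The 3 contrasts share their controls. The MEIS1 libraries had shares of 0.732% and 0.978%, with Top2a at 438 and 736 CPM, inside the control range, and Mki67 at 159 CPM, inside it, and 272 CPM, above the highest control at 197 CPM. The MEIS2 libraries had 0.401% and 0.0944%, with Top2a at 232 and 169 CPM and Mki67 at 119 and 19.99 CPM. The second of these had a median of only 1067 UMIs per progenitor, 0.436% mitochondrial UMIs and Cdc20 at 0 CPM, and it was the lowest P2 library for 32 of 42 members. Thinned to 1000 UMIs it lost 187 of 419 progenitors, and 5.60% of the rest were in the high range against 23.7% in the other MEIS2 library. The combination libraries had 0.403% and 0.628%, and 23.7% and 26.2% in the high range, inside the range of the controls. Leaving out MEIS2 library 1 gave 1 called member in the MEIS2 contrast, where 16.0% of all genes were then called.

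At P5 the direction rested on P5 control 3. For any MEIS against control no member was called (0.0202% of all genes were) and 1 had an unadjusted p under 0.05, with 1.91% of all genes. The median log2 fold change was -1.09, with all 42 below 0, from -2.32 for Cdc25c to -0.25 for Tmpo. Without P5 control 3 the median was 0.97, again with none called (0.0344% of all genes were) and with 5 under 0.05 before adjustment (2.87% of all genes), and Top2a turned from -1.42 to 1.39, Cdk1 from -1.01 to 1.37, Ube2c from -1.38 to 1.89 and Mki67 from -1.52 to 0.97. The summed shares were 0.0439% and 0.0646% with MEIS1, 0.0465% and 0.0556% with MEIS2, and 0.299% and 0.0931% with the combination. P5 controls 1, 2 and 4 lay between 0.0410% and 0.0488%, so 1 library of each single construct lay inside that range and the others above it.

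By construct at P5 the members' medians were -1.56 for MEIS1, -2.11 for MEIS2 and 0.45 for the combination, with none called by edgeR (0.00673%, 0.00673% and 0.0135% of all genes were) or DESeq2 (0.00451%, 0.0316% and 0.0496%), and with 1, 2 and 0 members at an edgeR p under 0.05 before adjustment (1.60%, 3.44% and 3.92% of all genes). Without P5 control 3 the combination's median was 2.63, with 0 members called (0.0619% of all genes were) and all 42 under 0.05 before adjustment (7.70% of all genes). That library was left out with its high member levels known, so these values describe the dependence on it and test nothing further. In the combination libraries Top2a was at 178 and 45.3 CPM, Mki67 at 80.1 and 19.99 CPM, and Hmgb2 at 856 and 372 CPM, and 17.2% and 3.52% of thinned progenitors were in the high range. With both P5 control 3 and the first of these left out, the median for the combination was 1.03 and that for any MEIS 0.49. The test of the difference between ages in the response to any MEIS called no member and 0% of all genes, with a median of -0.74, or 1.33 without P5 control 3.

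**Figure D4:**
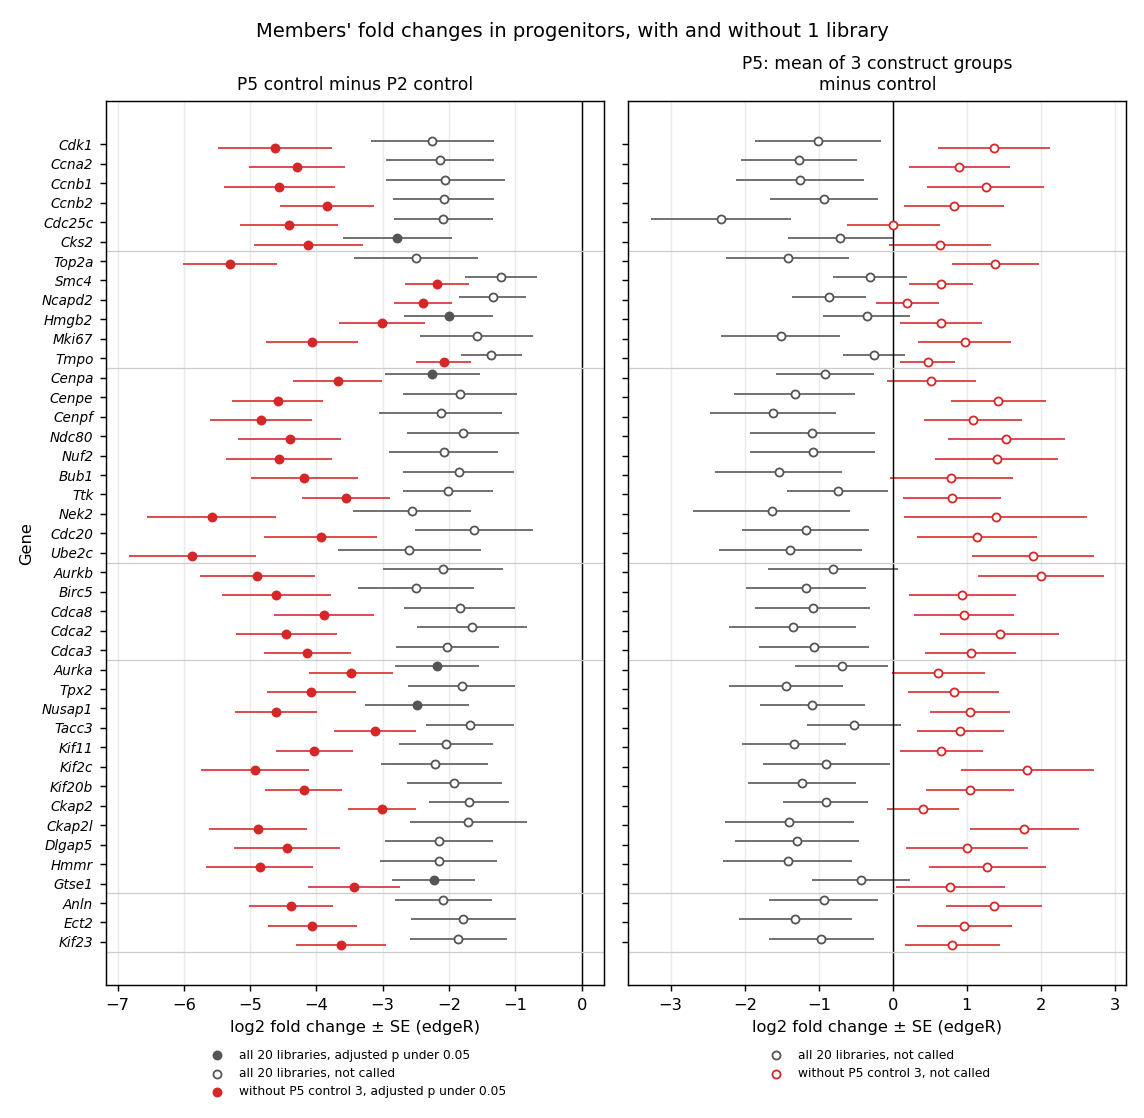
Log2 fold change of each member in progenitors (horizontal axis), by role, for P5 control minus P2 control (left) and for the mean of the 3 construct groups minus control at P5 (right), with all 20 libraries (grey) and without P5 control 3 (red). Bars are 1 SE and filled points passed edgeR's test. On the left every member lies below 0 in both fits, and on the right the members lie below 0 with P5 control 3 and above 0 without it, down to 0.01 for Cdc25c.

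In neurogenic cells 28 of the 42 members passed the filter on low counts, and these are not the whole list, since a gene could pass through the group where it is higher. In controls 3 were called lower at P5 and 0 higher, where 2.60% of all genes were called lower and 6.67% higher. Cks2 stood at 49.2, 70.3, 92.7 and 53.6 CPM in P2 controls and at 17.6, 14.9, 23.3 and 14.6 CPM in P5 controls, with no overlap and with P5 control 3 beside the others (-2.01 ± 0.31, edgeR adjusted p = 0.000357). Cdc20, the activator of the anaphase-promoting complex, was at 2.38 to 2.66 CPM against 0.540 to 1.37 CPM (-1.48 ± 0.40, edgeR adjusted p = 0.0236), and Top2a at 3.45 to 5.99 CPM against 0.434 to 2.46 CPM (-1.86 ± 0.57, edgeR adjusted p = 0.0472). Without P5 control 1 or P5 control 2 only 1 member was called lower (1.94% and 1.43% of all genes). Ube2c had the lowest log2 fold change, -2.02 (not called), and Cdca3 the highest, 0.58 (not called). Neurogenic cells of P5 controls 1 to 4 held 3, 3, 10 and 4 UMIs of Cdc20 and 2, 6, 18 and 2 of Top2a. In rods Cks2 was at 29.5, 42.4, 55.1 and 30.4 CPM in P2 controls. In P5 controls rod Cks2 was at 16.9, 19.96, 17.8 and 13.6 CPM. Rod Cdc20 was at 2.29 to 3.76 CPM against 0.631 to 2.28 CPM. Rod Top2a was at 1.82 to 4.23 CPM against 0.442 to 1.86 CPM. Whether the 3 called falls are particular to neurogenic cells was not tested.

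All P2 controls were above all 4 P5 controls in neurogenic cells for 5 of the 28 members (3.24% of all genes), and above P5 controls 1, 2 and 4 for 7 (5.35%). Of the other lists, the G2 and mitosis genes Pttg1 (-1.25), Sgo1 (-1.56) and Cdc25b (-0.89) fell and Tubb4b (0.74) rose among 37 tested. Cdca7 (-1.38) and Mcm7 (-0.59) fell among 38 S phase genes. Of the G1 and braking genes 4 of 20 rose, Ccnd2 by 3.10, Ccnd1 by 1.57, Cdk6 by 1.57 and Ccnd3 by 1.03 on the log2 scale. For any MEIS against control in neurogenic cells edgeR called no member at P2 (0% of all genes) or P5 (0.00728%), 0 members had an unadjusted p under 0.05 at either age (10.7% and 1.64% of all genes did), and the summed shares of construct libraries overlapped with those of the controls at both ages.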

How the data were processed

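UMI counts per gene and cell, cell types and clusters were used as the authors deposited them, in 1 table of 23260 genes and 79009 cells. Per the submitters' processing notes, Cell Ranger with mm10 and Seurat 5 were used, and per the labels a GFP locus was added. How doublets were treated is not given in the sources used here, and no caller was run. Mitochondrial percent was taken from the authors' deposited table of cells. The 42 members and the other gene lists were chosen with earlier results of these data known.

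Member UMIs were summed per library and type with at least 20 cells. edgeR 4.0.16 (R 4.3.3) quasi-likelihood tests used these sums from all 20 libraries, 1 mean per group, filterByExpr and TMM, two-sided, with Benjamini-Hochberg adjustment over all genes tested and calls at an adjusted p under 0.05. They were tested on simulated data. No p was computed for the summed share. Genes named in each comparison were Mki67, Top2a, Cdk1, Ccnb1, Hmgb2, Cenpf, Ube2c and Aurka, the called members (up to 10), the highest and lowest, and up to 4 called genes per list and direction. Levels with 0 to 3 UMIs and thinned shares carry counting error. Near-identical copies of a gene, such as those of Hmgb2, may split its reads. Alternatives were DESeq2 1.42.0, no TMM, no filter, only the groups compared, groups by barcode start, a replicate block, at least 50 cells and leaving out libraries. The numbers were not taken as pairs.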

Additional observations from a re-analysis of the deposited data

Results flagged for a closer look

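P5 control 3 was far from the other 3 P5 controls in 10 values of progenitors, by Dixon's ratio of its gap to the nearest library over the range of the group of 4, above the 95% critical value. These were the summed share of the members (0.430%), the percent of progenitors in the high range (20.5%), and the levels of Hmgb2 (1017 CPM), Top2a (302 CPM), Cenpf (233 CPM), Ube2c (202 CPM), Mki67 (155 CPM), Cdk1 (124 CPM), Ccnb1 (69.8 CPM) and Aurka (19.3 CPM). Of 26 groups of 4 libraries looked at, chance alone flags about 1 in 20, and the 10 values come from 1 library and related genes, so they are not 10 separate signs. This library had been singled out with earlier results of these data known, so the ratios describe its distance and test nothing.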

How the results depend on the processing

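The count of members called lower at P5 in control progenitors was 6, and it depended on the setting. In brackets are the genes called lower among all tested, 1034 of 14849 in the main fit. The count was 15 with DESeq2 (1384 of 22177), 13 without the filter on low counts (919 of 22186), and 14 with groups read from the barcode start (1445 of 14849). It was 2 with only the groups compared (706 of 13217) and 26 without P2 control 4 and P2 MEIS2 2 (1711 of 15527). Without P5 control 3 and P5 combination 1 it was 42 (1453 of 15194). Both pairs were chosen after seeing the data. Leaving out single libraries gave 0 to 42 (3.46% to 10.4% of all genes). With the replicate block it was 42 (1534 of 14849 genes). The labels do not say that the numbers pair libraries, and same-numbered libraries in progenitors had correlations of their deviations of -0.23 to 0.45 at P2, 0.03 to 0.36 at P5 and 0.0921 to 0.288 between controls of the 2 ages, so pairing is not shown. As a hint from the data, 8 of 8 P5 libraries and 6 of 8 P2 libraries numbered 1 or 2 correlated best with their own number, but in a group of 2 the deviations mirror each other, so these are not separate observations. In neurogenic cells the count was 3 (357 of 13745 genes called lower) and 6 by barcode start (694 of 13745). With single libraries left out it was 1 to 3 (from 195 of 13636 to 587 of 13681 genes). The MEIS2 contrast at P2 gave 0 to 1, and every other MEIS count stayed 0 under the settings run.

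For any MEIS at P5, no named member's difference was called, and the signs turned under the replicate block (Mki67 0.80, Top2a 1.02, Cdk1 1.05, Ccnb1 1.00, Hmgb2 0.60, Cenpf 1.09, Ube2c 1.54, Aurka 0.77, Tmpo 0.46, Cdc25c 0.15) and without P5 control 3 and P5 combination 1 (Mki67 0.50, Top2a 0.93, Cdk1 0.67, Ccnb1 0.59, Hmgb2 0.39, Cenpf 0.49, Ube2c 1.29, Aurka 0.13, Tmpo 0.27). Only controls carry the numbers 3 and 4, so this block fits P5 control 3 and P5 control 4 each by a term of its own. Neither then enters the MEIS contrast, and the turn of sign under the block is not separate from leaving out P5 control 3. With single libraries left out the ranges were Mki67 -1.98 to 0.97, Top2a -1.88 to 1.39, Cdk1 -1.71 to 1.37, Ccnb1 -1.92 to 1.25, Hmgb2 -0.62 to 0.65, Cenpf -2.22 to 1.08, Ube2c -1.99 to 1.89, Aurka -1.18 to 0.61, Tmpo -0.45 to 0.47 and Cdc25c -3.81 to 0.00773, with the upper ends without P5 control 3. At P2 they were Mki67 -0.92 to 0.17, Top2a -0.84 to 0.13, Cdk1 -1.49 to 0.0391, Ccnb1 -1.57 to 0.18, Hmgb2 -1.18 to 0.0146, Aurka -0.71 to 0.28 and Ncapd2 -0.0166 to 0.56.

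The summed share in progenitors, any MEIS minus control, was -0.0228 percentage points at P2, 0.0163 without the deepest 5% of cells, 0.0381 as a mean of cells' shares, and -0.147 to 0.105 with single libraries left out. At P5 it was -0.0406, and -0.0803 to 0.0558. In neurogenic cells it was 0.000691 at P5, and -0.00156 to 0.00321. The difference of P5 from P2 controls there was -0.0161, and -0.00875 without Hmgb2 and Tmpo. Except where a setting leaves out libraries or genes, the cause was not tested. Without TMM the median of all genes moved by over 0.1 on the log2 scale in some MEIS contrasts. Depth limits single low genes most in P2 MEIS2 2, whose progenitors had 650348 UMIs in all, the fewest of the 20 libraries. Its member UMIs there were 614, beside 605 in P5 MEIS2 1.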
